A study of Sus scrofa with 20 samples.

Results

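The semaphorins, plexins and neuropilins of the pig were examined in backfat and liver of Nanchukmacdon boars. Members were the genes of the deposited count table whose Ensembl symbol begins with SEMA and a number or with PLXN and a letter from A to D, together with NRP1 and NRP2, which gave 31 genes of 31907. These were 20 semaphorins, 9 plexins and 2 neuropilins. Nanchukmacdon is a pig breed kept on Jeju island, and bulk pieces of subcutaneous back fat and of liver were taken from 5 boars, labelled as WT, normal and aged 22 months. Each tissue gave 5 RNA-seq libraries, in which reads had been counted per gene. Libraries are named by tissue and by the boar number in the column names (65, 67, 69, 71 and 72), and values listed for a tissue follow that order. Bisulfite libraries of the same tissues were also made, but their deposited calls carry no genomic position and so give no value for a single gene.

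Semaphorins are secreted or membrane-bound ligands that steer growing axons, endothelial cells and immune cells. Plexins are their main receptors, and most act on the cytoskeleton through a cytoplasmic domain that switches off small GTPases. Class 3 semaphorins are the secreted class of vertebrates, and most of them reach plexins through the co-receptors NRP1 and NRP2, which also bind vascular endothelial growth factors. Classes 4 to 6 span the membrane and class 7 is held by a lipid anchor, and these classes bind plexins without a neuropilin. In adipose tissue and liver the family is known mainly from blood vessels, nerve endings and immune cells.

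The libraries held between 43820042 and 61772737 counts. Levels are given as CPM, which is a library's counts for a gene scaled to a common library size, after scaling by the trimmed mean of M-values (TMM), and a difference is a log2 fold change of backfat over liver from edgeR's quasi-likelihood test with its standard error (SE), where positive values are higher in backfat. The adjusted p is the Benjamini-Hochberg value over the 16275 genes tested, and the term differentially expressed gene (DEG) is kept for an adjusted p no higher than 0.05 joined to a log2 fold change of 2 or more, or of -2 or less. Markers matched the labelled tissues: all 8 adipocyte markers were higher in backfat, with a summed level of 11817 to 19429 CPM against 13.8 to 20.7 CPM in liver, and all 10 hepatocyte markers were higher in liver. Liver 67 stood apart, with 20649 CPM of hepatocyte markers against 64771 to 84429 CPM in the other 4 liver libraries, and with 44.5% of its counts on the 13 mitochondrial protein genes against 6.38% to 20.2% in the other 9 libraries. Results that rest on it are given with and without it. Summed marker levels, here and below, are CPM without TMM factors. Those factors ran from 1.18 to 1.44 in backfat and from 0.649 to 0.916 in liver.

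Of the 31 members, 30 had enough counts to be tested, and the remaining gene, SEMA4G, had no count in any library. At the adjusted p alone 19 members were higher in backfat and 6 were higher in liver, and 5 did not pass. Over all genes tested 28.0% were higher in backfat and 27.0% higher in liver by the same rule. As DEGs 10 members were higher in backfat (NRP1, SEMA3A, SEMA3B, SEMA3C, SEMA3E, SEMA3F, SEMA3G, SEMA4F, SEMA5A and SEMA6C) and 1 was higher in liver (PLXNA4), beside 11.1% and 11.2% of all genes. In 15 members every backfat library lay above every liver library and in 6 every liver library lay above every backfat library, where the shares over all genes were 22.9% and 19.7%. The median log2 fold change of the 30 members was 1.33, while that of all genes tested was 0.00. Without TMM factors, with library size alone, the count of DEGs higher in backfat was 16 and that higher in liver was 1, on a scale on which the median of all genes itself moved to 0.71.

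Described by role, the ligands and the neuropilins were mostly higher in backfat and the receptors were divided. Of the 19 semaphorins tested, 14 were higher in backfat and 3 in liver, with a median log2 fold change of 1.84. Both neuropilins were higher in backfat. Of the 9 plexins, 3 were higher in backfat, 3 were higher in liver and 3 did not pass, with a median of 0.23 that was 0.087 without liver 67. In bulk tissue a lower level can come from fewer cells of a type or from less RNA per cell, and these cannot be told apart here.

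**Figure D1:**
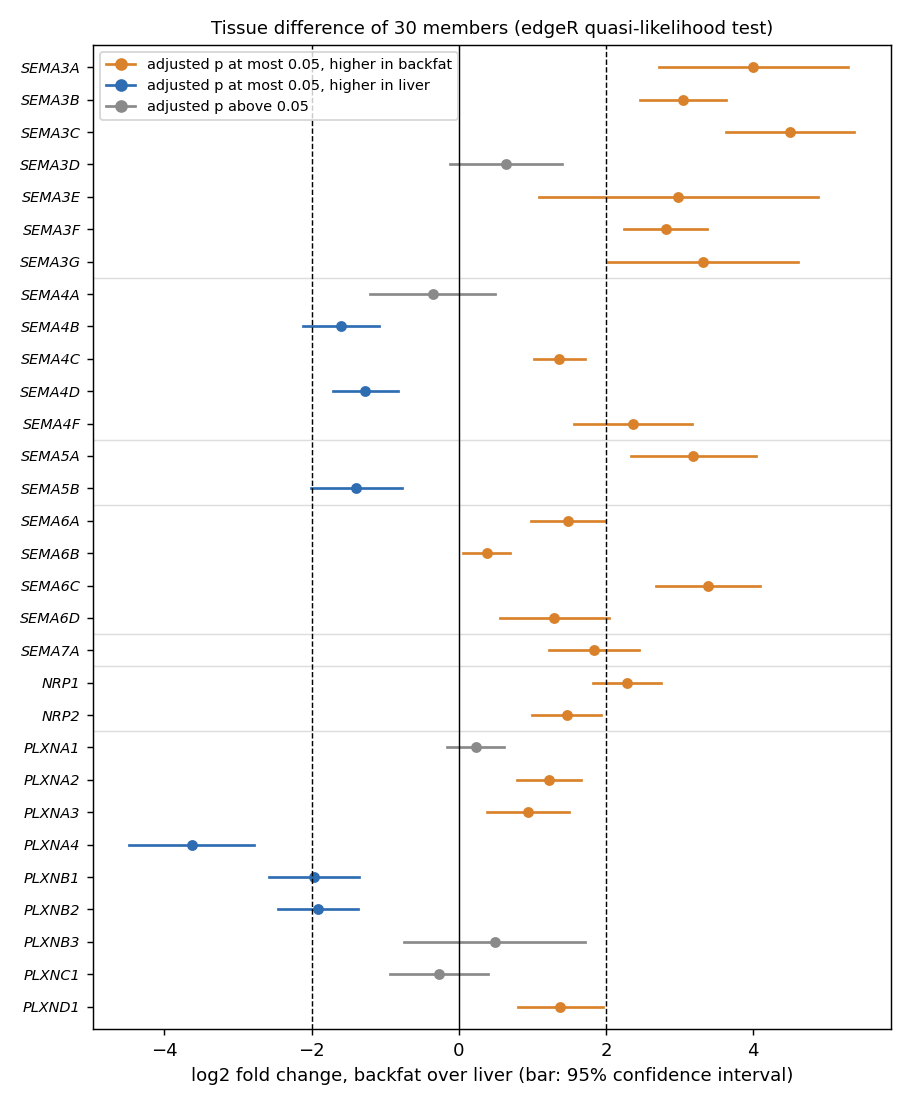
Each point is the log2 fold change of backfat over liver for 1 of the 30 members tested, with its 95% confidence interval from 5 libraries per tissue, and the dashed lines mark the DEG threshold of 2 in each direction. Class 3 semaphorins other than SEMA3D lie at 2.81 to 4.50, while plexins spread from -3.63 to 1.38.

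Class 3, the secreted semaphorins, was higher in backfat in nearly every gene. Of its 7 genes 6 were DEGs higher in backfat and SEMA3D did not pass, and the median log2 fold change of the class was 3.04. The genes fall into groups by position on Sscrofa11.1 in the RefSeq annotation. SEMA3D (9:95280637-95486109), SEMA3A (9:95934937-96387950), SEMA3E (9:96682178-96941074) and SEMA3C (9:99114649-99432683) lie in that order on the plus strand of chromosome 9. SEMA3F (13:32641376-32671231) and SEMA3B (13:32737100-32749633) lie in that order on the plus strand of chromosome 13, and SEMA3G (13:34574014-34585686) lies on the minus strand of the same chromosome.

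The chromosome 9 genes hold both the 1 class 3 gene that did not pass and 3 that were DEGs, so the 250 bases before the RefSeq start of each are shown, 5′ to 3′ on the plus strand, with each CG dinucleotide in capitals. The windows are chr9:95280387-95280636, chr9:95934687-95934936, chr9:96681928-96682177 and chr9:99114399-99114648 of Sscrofa11.1, and a RefSeq start need not be the start used in these tissues.
SEMA3D: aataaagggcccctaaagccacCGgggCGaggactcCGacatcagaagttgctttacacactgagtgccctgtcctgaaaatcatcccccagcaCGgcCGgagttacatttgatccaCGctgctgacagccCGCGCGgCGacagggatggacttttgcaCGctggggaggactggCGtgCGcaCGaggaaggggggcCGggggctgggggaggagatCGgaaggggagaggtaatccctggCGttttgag
SEMA3A: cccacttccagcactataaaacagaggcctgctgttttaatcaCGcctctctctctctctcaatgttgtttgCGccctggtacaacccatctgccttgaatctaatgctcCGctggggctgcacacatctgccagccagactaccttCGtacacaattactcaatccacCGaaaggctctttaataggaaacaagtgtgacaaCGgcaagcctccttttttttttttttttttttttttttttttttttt
SEMA3E: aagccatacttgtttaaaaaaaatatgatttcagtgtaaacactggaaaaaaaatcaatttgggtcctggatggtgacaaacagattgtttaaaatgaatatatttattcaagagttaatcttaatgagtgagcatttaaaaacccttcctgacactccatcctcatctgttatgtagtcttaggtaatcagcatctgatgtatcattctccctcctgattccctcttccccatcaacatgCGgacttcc
SEMA3C: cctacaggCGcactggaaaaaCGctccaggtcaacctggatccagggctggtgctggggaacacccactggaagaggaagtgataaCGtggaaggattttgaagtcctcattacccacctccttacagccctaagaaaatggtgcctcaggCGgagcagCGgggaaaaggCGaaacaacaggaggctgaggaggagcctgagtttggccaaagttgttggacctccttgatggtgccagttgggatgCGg
The SEMA3D window, of the gene that did not pass, holds 17 CG, and those of SEMA3A, SEMA3E and SEMA3C hold 6, 1 and 7. With only 1 gene of the class outside the DEGs, a relation of CG number to the DEG call cannot be judged. The windows of SEMA3F, SEMA3B and SEMA3G on chromosome 13, all DEGs, hold 33, 3 and 7 CG. Over the same window of 19556 protein-coding genes the median was 12 CG, with quartiles of 4 and 22. Searched on both strands, TATAAA occurs in the SEMA3A window and in no other of the 31 members, against 9.77% of all windows. GGGCGG occurs in none of the 4 windows shown and in 16 of the 31 members, or 51.6%, against 45.9% of all windows. The matches are a description of the reference sequence only, and the methylation of these CG was not analysed here.

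SEMA3A, the classical repellent of axons, which acts through NRP1, was low in both tissues on the scale of the other members. It was at 3.16, 4.15, 2.89, 4.25 and 4.39 CPM in backfat and at 0.0499, 0.702, 0.149, 0.190 and 0.0814 CPM in liver. The highest liver library, liver 67, was still below every backfat library. Its log2 fold change was 4.0 (SE 0.59, adjusted p = 9.68e-05), which rested on 172 to 280 counts per backfat library and 2 to 26 per liver library, and without liver 67 it was 4.96.

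SEMA3C, a ligand of both neuropilins with PLXND1 as a signalling partner, had the largest fold change among the members with all 10 libraries. Its levels were 12.7, 20.9, 22.9, 19.6 and 16.2 CPM in backfat and 0.898, 1.57, 0.552, 0.253 and 0.787 CPM in liver, with no overlap. This gave a log2 fold change of 4.50 (SE 0.40, adjusted p = 1.26e-06), a 22.7-fold difference. Without liver 67 it was 4.84, below the 4.96 of SEMA3A.

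SEMA3E, which binds PLXND1 directly without a neuropilin, had the lowest mean CPM of the tested members in both tissues. By the median in backfat PLXNA4 was slightly lower, at 1.11 CPM against 1.13 CPM for SEMA3E. SEMA3E was at 0.395, 1.13, 1.83, 0.378 and 1.22 CPM in backfat and at 0, 0.0270, 0.0637, 0.506 and 0.0542 CPM in liver. Liver 71 lay above 2 backfat libraries, so the tissues overlapped, and the liver values stand for 0 to 16 counts per library. Its log2 fold change was 2.98 (SE 0.87, adjusted p = 0.0114). It was 4.63 without liver 71, and with boars 67 and 69 left out in both tissues it was 1.88 with an adjusted p of 0.183, so the call depended on which libraries were kept.

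SEMA3D, which guides endothelial and neural cells, was at 7.24, 6.53, 11.4, 7.77 and 9.09 CPM in backfat and at 2.59, 9.23, 2.89, 7.71 and 4.58 CPM in liver. Liver 67 and liver 71 lay within the backfat range and the other 3 liver libraries below it. Its log2 fold change was 0.64 with a 95% confidence interval of -0.12 to 1.41 (adjusted p = 0.141), and without liver 67 it was 0.88 (adjusted p = 0.0385). Per length it was the most expressed of the chromosome 9 genes in liver, with a median of 0.944 on the length-scaled TPM measure against 0.206 for SEMA3C, the next.

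The chromosome 13 genes were expressed at higher levels. SEMA3B, a secreted semaphorin that was first studied as a candidate tumour suppressor, was at 82.8, 72.9, 50.5, 74.1 and 101 CPM in backfat and at 7.98, 15.7, 8.37, 6.73 and 7.38 CPM in liver. SEMA3F, which prefers NRP2, was at 84.4, 98.3, 63.6, 75.2 and 68.5 CPM in backfat and at 9.25, 19.8, 8.64, 8.53 and 9.44 CPM in liver. Both were separated in all libraries, with liver 67 the highest liver library in each. The log2 fold changes were 3.04 (SE 0.27, adjusted p = 1.25e-06) for SEMA3B and 2.81 (SE 0.26, adjusted p = 1.88e-06) for SEMA3F. SEMA3G, known from endothelium, was at 70.4, 64.2, 125, 65.5 and 49.3 CPM in backfat and at 3.27, 23.2, 3.12, 4.30 and 3.66 CPM in liver. Backfat 69 and liver 67 stood above the rest of their tissues without closing the gap between tissues. Its log2 fold change was 3.32 (SE 0.59, adjusted p = 0.000429), and without liver 67 it was 4.34.

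**Figure D2:**
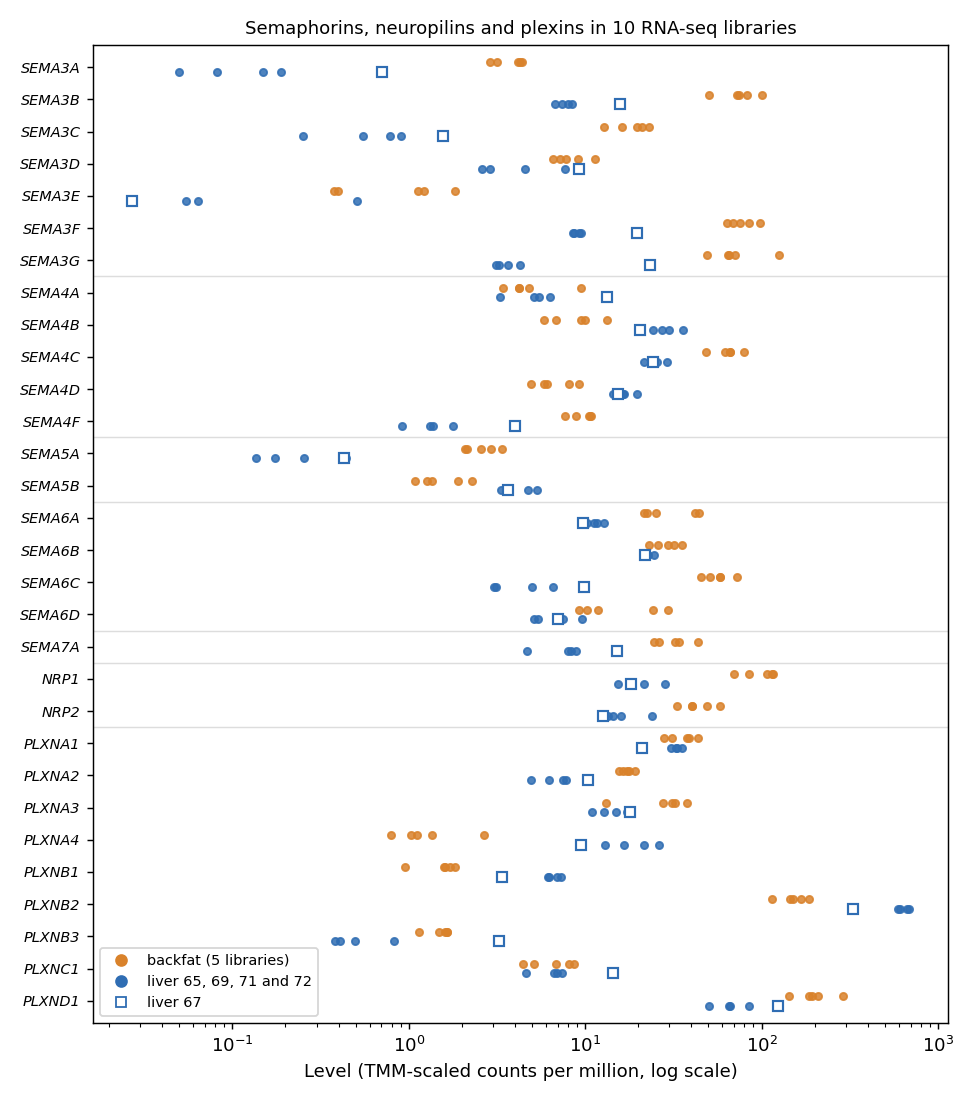
Each point is the level of 1 member in 1 library in TMM-scaled CPM on a log axis, with backfat in orange, liver in blue and liver 67 as an open square; 1 value of 0 (SEMA3E in liver 65) is not drawn. SEMA3C ran from 12.7 to 22.9 CPM in backfat and from 0.253 to 1.57 CPM in liver, and PLXNB2 was the member with the highest liver levels.

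Among the membrane-bound classes the differences went both ways in class 4. Of its 5 tested genes 2 were higher in backfat, 2 were higher in liver and SEMA4A did not pass. The median log2 fold change was that of SEMA4A, -0.36, which turned to 0.019 without liver 67. SEMA4C, a ligand of PLXNB2, was at 48.2 to 79.6 CPM in backfat and 21.6 to 29.1 CPM in liver (log2 fold change 1.37, SE 0.16, adjusted p = 1.26e-05). SEMA4F was at 10.7, 10.8, 7.72, 10.5 and 8.87 CPM in backfat and at 1.37, 4.0, 0.913, 1.33 and 1.79 CPM in liver. It was the only DEG of class 4, with no overlap and a log2 fold change of 2.37 (SE 0.37, adjusted p = 0.00014).

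SEMA4B and SEMA4D ran the other way. SEMA4B was at 5.82 to 13.2 CPM in backfat and 20.5 to 35.8 CPM in liver (log2 fold change -1.60, SE 0.24, adjusted p = 0.000108). SEMA4D, a ligand of PLXNB1 that lymphocytes also carry, was at 4.94 to 9.24 CPM in backfat and 14.3 to 19.6 CPM in liver (log2 fold change -1.27, SE 0.20, adjusted p = 0.000168). The liver libraries lay above all backfat libraries for both genes. Of the 6 lymphocyte markers 3 were higher in liver. Their summed level was 16.9 to 53.4 CPM in backfat and 15.6 to 40.1 CPM in liver. These sums are without TMM factors and so are not on the scale of SEMA4D. The part of lymphocytes in the SEMA4D difference was not tested. SEMA4A, which acts on immune cells and vessels, was at 3.42 to 9.52 CPM in backfat and 3.27 to 13.4 CPM in liver, with a log2 fold change of -0.36 and an interval of -1.20 to 0.49 (adjusted p = 0.459). Its highest backfat library was backfat 65, which also had the highest lymphocyte marker level, and its highest liver library was liver 67.

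The 2 class 5 genes, whose proteins carry thrombospondin repeats, moved in opposite directions. SEMA5A, a ligand of PLXNB3, was at 2.92, 2.58, 3.36, 2.09 and 2.13 CPM in backfat and at 0.175, 0.432, 0.255, 0.442 and 0.136 CPM in liver. The tissues did not overlap, and the log2 fold change was 3.18 (SE 0.39, adjusted p = 2.06e-05) on 5 to 16 counts per liver library. SEMA5B was at 1.35, 1.08, 2.29, 1.26 and 1.90 CPM in backfat and at 4.71, 3.67, 3.67, 3.35 and 5.34 CPM in liver. It was higher in every liver library, with a log2 fold change of -1.39 (SE 0.28, adjusted p = 0.00116).

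All 4 class 6 genes, transmembrane ligands of the plexin A receptors, were higher in backfat at the adjusted p, although the call of SEMA6B did not hold in 15 of the 21 alternatives tried. SEMA6C was the DEG among them, at 73.0, 58.4, 45.5, 50.9 and 58.5 CPM in backfat and 3.12, 9.80, 3.06, 6.54 and 4.96 CPM in liver. The log2 fold change was 3.38 (SE 0.32, adjusted p = 2.42e-06). SEMA6A and SEMA6D were high in the same backfat libraries. SEMA6A was at 41.7, 22.3, 44.4, 21.5 and 25.1 CPM in backfat against 9.77 to 12.7 CPM in liver (log2 fold change 1.48, SE 0.23, adjusted p = 0.000152). SEMA6D was at 24.3, 9.20, 29.4, 11.8 and 10.2 CPM in backfat against 5.13 to 9.54 CPM in liver (log2 fold change 1.30, SE 0.34, adjusted p = 0.00625). Backfat 65 and backfat 69 were the high libraries of both genes, and the SEMA6D ranges of the tissues met through backfat 67.

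Beside these values, backfat 65 and backfat 69 also had the highest summed levels of skeletal muscle markers, 573 and 184 CPM against 11.7 to 146 CPM in the other backfat libraries. The same libraries were highest in endothelial markers, at 1780 and 1778 CPM, where the other backfat libraries reached up to 1630 CPM. Schwann cell and nerve markers were highest in backfat 69 alone, at 65.3 CPM against 11.7 to 22.6 CPM. The part of these or any other cells in the spread was not tested. SEMA6B was at 23.1 to 35.4 CPM in backfat and 21.3 to 24.4 CPM in liver, with a log2 fold change of 0.38 (SE 0.15, adjusted p = 0.0444). With the boar as a block it was 0.37 with an adjusted p of 0.0848, so that call did not hold. SEMA7A, the lipid-anchored ligand of PLXNC1 and of integrin beta 1, was at 24.6 to 43.8 CPM in backfat and 4.67 to 15.2 CPM in liver (log2 fold change 1.84, SE 0.28, adjusted p = 0.000137). Without liver 67 its log2 fold change was 2.07.

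Levels of different genes were compared per length, as TPM, in which counts are divided by the exon lengths of the count table and scaled to the same total in each library. The summed semaphorin level was 296 to 478 TPM in backfat and 35.4 to 62.7 TPM in liver. Class 3 made up 58.3% to 62% of it in backfat and 21.4% to 40.0% in liver, where the 4 libraries other than liver 67 reached at most 24.3%. Class 4 made up 13.5% to 17.6% in backfat and 36.2% to 51.4% in liver. In liver the pool of semaphorin transcripts was smaller, and membrane-bound class 4 took the larger share of it in the 4 libraries other than liver 67. Shares within a family do not depend on the mitochondrial transcripts, which the TPM values do.

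**Figure D3:**
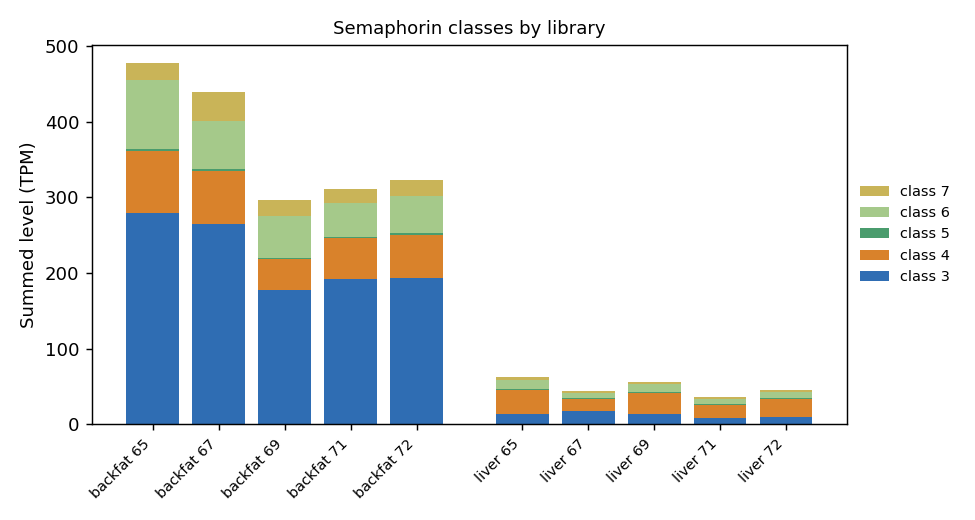
Stacked bars give the summed level in TPM, without TMM factors, of each semaphorin class in the 10 libraries, 5 per tissue. The class 3 part was 178 to 279 TPM in backfat and 7.57 to 17.8 TPM in liver.

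In backfat the order of the semaphorins by median TPM began with SEMA3B (85.3), SEMA3F (69), SEMA3G (46.7), SEMA4C (42.0), SEMA6C (25.6) and SEMA7A (21.4). The ranges of each neighbouring pair in this order overlapped, and SEMA3B exceeded SEMA3F in 3 of 5 libraries. In liver the order began with SEMA4B (10.8), SEMA4C (6.93), SEMA3F (5.58) and SEMA3B (5.11). These ranges overlapped too, although SEMA4B exceeded SEMA4C in 5 of 5 libraries and SEMA3F exceeded SEMA3B in 5 of 5. Both orders depend on the exon lengths of the count table. There SEMA4C has 5181 bases and SEMA3F 3096, while their longest RefSeq transcripts have 4056 and 3857. The lowest tested ligands were SEMA3E in both tissues, at 0.57 TPM in backfat and 0.0131 TPM in liver. The length used matters most for SEMA6B, whose mean in backfat was 10.6 ± 2.47 TPM (SD, n = 5) with the exon length of the table and 21.2 TPM with its longest RefSeq transcript.

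Both neuropilins, the co-receptors of the secreted class, were higher in every backfat library. NRP1 was at 108, 115, 116, 84.6 and 70.2 CPM in backfat and at 28.4, 18.3, 21.5, 15.3 and 17.7 CPM in liver, with a log2 fold change of 2.29 (SE 0.21, adjusted p = 1.84e-06). NRP2 was at 58.5, 33.1, 49.1, 40.2 and 40.1 CPM in backfat and at 14.5, 12.6, 13.4, 23.8 and 15.9 CPM in liver, with a log2 fold change of 1.46 (SE 0.22, adjusted p = 9.16e-05). NRP1 passed the threshold of 2 and NRP2 did not, and a difference between their fold changes was not tested. Per length, NRP1 made up 70.8% to 82.8% of the neuropilin TPM in backfat and 47.2% to 73.1% in liver, and these ranges overlapped. In liver 67 neither neuropilin was raised, at 0.93 and 0.83 times the median of the other liver libraries.

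Markers of vessel and stromal cells also differed between the tissues in the direction of the neuropilins and most class 3 semaphorins. The 8 general endothelial markers were all higher in backfat, with a summed level of 1075 to 1780 CPM against 111 to 188 CPM in liver. All 8 fibroblast markers were higher in backfat (45318 to 80890 CPM against 548 to 793 CPM), as were all 7 smooth muscle and pericyte markers (1027 to 1453 CPM against 165 to 320.3 CPM). Markers of liver cells of these kinds did not follow: of the 5 sinusoidal endothelial markers tested none was higher in backfat and 3 were higher in liver (129 to 354 CPM in backfat against 322 to 591 CPM in liver). Of the 6 stellate cell markers 1 was higher in backfat and 3 were higher in liver, although their summed level was 1373 to 1694 CPM in backfat and 132 to 180 CPM in liver. The stellate and fibroblast lists share DCN, so this sum is not particular to stellate cells. All these sums are without TMM factors and so are not on the scale of the members. No marker of these lists was at 0 in a tissue. The part of any of these cell types in the differences was not tested.

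The plexins divided between the tissues. PLXNB2, a receptor of class 4 semaphorins that is widespread in epithelia, was at 186, 168, 115, 146 and 151 CPM in backfat and at 609, 329.7, 664, 687 and 590.2 CPM in liver. Every liver library was above every backfat library, and liver 67 was the lowest of the liver libraries. The log2 fold change was -1.91 (SE 0.25, adjusted p = 3.38e-05), just short of the DEG threshold, and without liver 67 it was -2.09. PLXNB1, the receptor of SEMA4D, was at 1.60, 0.946, 1.58, 1.82 and 1.72 CPM in backfat and at 6.16, 3.38, 6.90, 7.30 and 6.24 CPM in liver. Its log2 fold change of -1.97 (SE 0.28, adjusted p = 7.94e-05) also fell short of it, and without liver 67 it was -2.15. Of the exon bases of PLXNB1 in RefSeq 4.05% are shared with another annotated gene, so its count is a little less certain.

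PLXNA4, a receptor that pairs with NRP1 for SEMA3A and also binds class 6 semaphorins, was the only member that was a DEG higher in liver. It was at 2.66, 1.11, 1.36, 1.03 and 0.789 CPM in backfat and at 26.1, 9.53, 21.6, 16.7 and 13 CPM in liver. The tissues did not overlap, liver 67 being the lowest liver library and backfat 65 the highest backfat library. The log2 fold change was -3.63 (SE 0.39, adjusted p = 6.18e-06), a 12.4-fold difference. The gene lies on the plus strand of chromosome 18 (18:16475250-16977821) and shares no exon base with the 3 uncharacterised genes inside its span. SEMA3A, its ligand, and PLXNA4 thus had opposite tissue differences.

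The other plexins A gave smaller differences. PLXNA2 was at 15.6 to 19.1 CPM in backfat and 4.94 to 10.4 CPM in liver (log2 fold change 1.23, SE 0.20, adjusted p = 0.000211). PLXNA3 was at 37.8, 31.1, 13.1, 27.5 and 32.4 CPM in backfat and at 17.4, 18.1, 15, 10.9 and 12.7 CPM in liver. Backfat 69 lay among the liver libraries, and the log2 fold change was 0.94 (SE 0.26, adjusted p = 0.00812). PLXNA1 was at 27.9 to 43.8 CPM in backfat and 20.9 to 35.2 CPM in liver, with a log2 fold change of 0.23 and an interval of -0.16 to 0.62 (adjusted p = 0.301), an interval that leaves out a 2-fold difference.

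PLXND1, the endothelial plexin that receives SEMA3E and SEMA3C, had the highest median of the plexins in backfat per length and lay above PLXNB2 there in 4 of 5 libraries. It was at 288, 143, 208, 192 and 185 CPM in backfat and at 66.1, 124, 50.6, 85.3 and 65 CPM in liver. The lowest backfat library, backfat 67, was above the highest liver library, liver 67. The difference was 1.38 on the log2 scale (SE 0.27, adjusted p = 0.000768).

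PLXNB3 and PLXNC1 did not pass the test. PLXNB3, the receptor of SEMA5A, was at 1.60, 1.14, 1.65, 1.48 and 1.65 CPM in backfat and at 0.499, 3.27, 0.382, 0.821 and 0.407 CPM in liver. Liver 67 was above all backfat libraries and the other 4 liver libraries were below them. The log2 fold change was 0.49 with an interval of -0.74 to 1.72 (adjusted p = 0.488), and without liver 67 it was 1.48 (adjusted p = 0.00234). PLXNC1, the receptor of SEMA7A on myeloid cells, was at 4.43 to 8.59 CPM in backfat and 4.61 to 14.3 CPM in liver. Its log2 fold change was -0.27 with an interval of -0.94 to 0.40 (adjusted p = 0.479), and without liver 67, at 14.3 CPM its highest liver library, it was 0.019. In RefSeq 39.0% of its exon bases are shared with CEP83, and reads were counted without regard to strand, so its count is uncertain.

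Per length, the plexin pool was made of different genes in the 2 tissues. PLXNB2 made up 32.4%, 42.6%, 29.8%, 34.6% and 34.8% of the summed plexin TPM in backfat and 81.0%, 62.7%, 84.0%, 81.8% and 81.6% in liver. PLXND1 made up 50.1%, 36.3%, 54.1%, 45.5% and 42.6% in backfat and 8.77%, 23.6%, 6.39%, 10.2% and 8.96% in liver. Neither range overlapped between tissues, and liver 67 was the liver library nearest to backfat for both. In 4 of 5 backfat libraries PLXND1 exceeded PLXNB2, and in 5 of 5 liver libraries PLXNB2 exceeded PLXND1. The summed plexin level itself, 143 to 319 TPM in backfat and 75.3 to 230.3 TPM in liver, overlapped between tissues. Without liver 67 the liver range was 129 to 230.3 TPM, which also overlapped. These sums are without TMM factors.

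**Figure D4:**
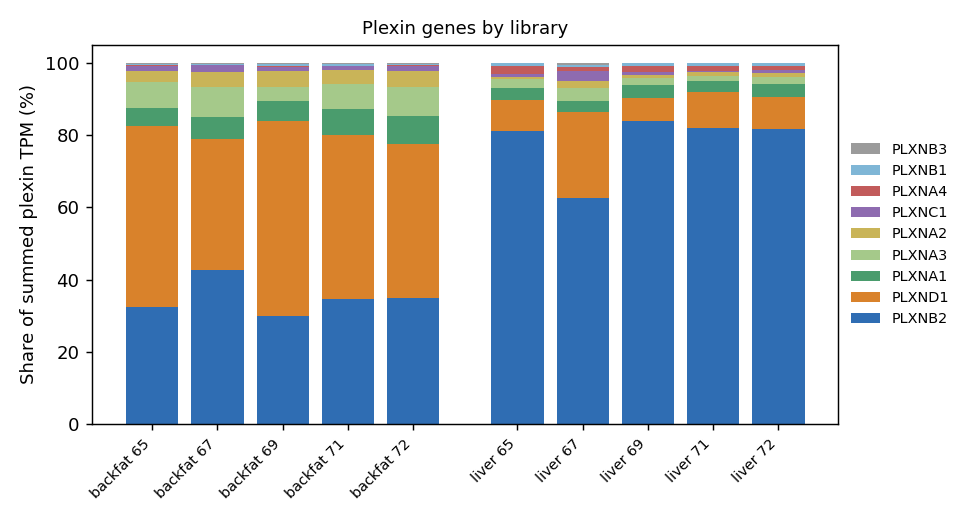
Stacked bars give the share in percent of the summed plexin TPM taken by each of the 9 plexin genes in the 10 libraries. PLXNB2 takes 62.7% to 84.0% of the liver bars and 29.8% to 42.6% of the backfat bars, and PLXND1 takes 36.3% to 54.1% in backfat.

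SEMA4G had 0 counts in all 10 libraries, over 252730298 counts in backfat and 246241712 in liver. A count of 0 allows up to 3 counts per tissue, or 0.0119 CPM in backfat and 0.0122 CPM in liver, for counting error only. In the count table it has an exon length of 8117 bases. SLF2, listed beside it with 8221 bases, had 0 to 7 counts per library, while TWNK and MRPL43 nearby had 421 to 1545 and 148 to 303. Reads that fall on exons of more than 1 gene were not assigned by the counting, and whether this bears on SEMA4G was not tested, so the 0 is a property of the table and not shown to be absence of the transcript.

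Liver 67 differed from the other liver libraries in the members as it did in its markers. It was the highest liver library in 15 of the 30 members tested, or 50.0%, beside 32.6% of all genes tested, and its median ratio to the median of the other 4 liver libraries was 1.41. It lay above that median in 13 of the 19 members higher in backfat and in 0 of the 6 members higher in liver. Over all genes the shares were 62.7% of those higher in backfat and 38.0% of those higher in liver. The highest ratios among the members were those of PLXNB3 (7.22), SEMA3G (6.70) and SEMA3A (6.10). Liver 67 had the highest liver levels of smooth muscle and pericyte markers (320.3 CPM against at most 224), fibroblast markers (793 CPM against at most 705), skeletal muscle markers (114 CPM against at most 1.12) and cholangiocyte markers (52.4 CPM against at most 33.1). It was also highest in red cell markers (1315 CPM against at most 291) and lymphocyte markers (40.1 CPM against at most 31.0), and lowest in adipocyte markers (13.8 CPM). Its endothelial markers, at 183 CPM without TMM factors, were within the range of the others, where liver 65 was highest at 188 CPM. The TMM factors left out of these sums were 0.722 for liver 67 and 0.916 for liver 65, so that order depends on the scaling. The part of these cells in its member levels was not tested.

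**Figure D5:**
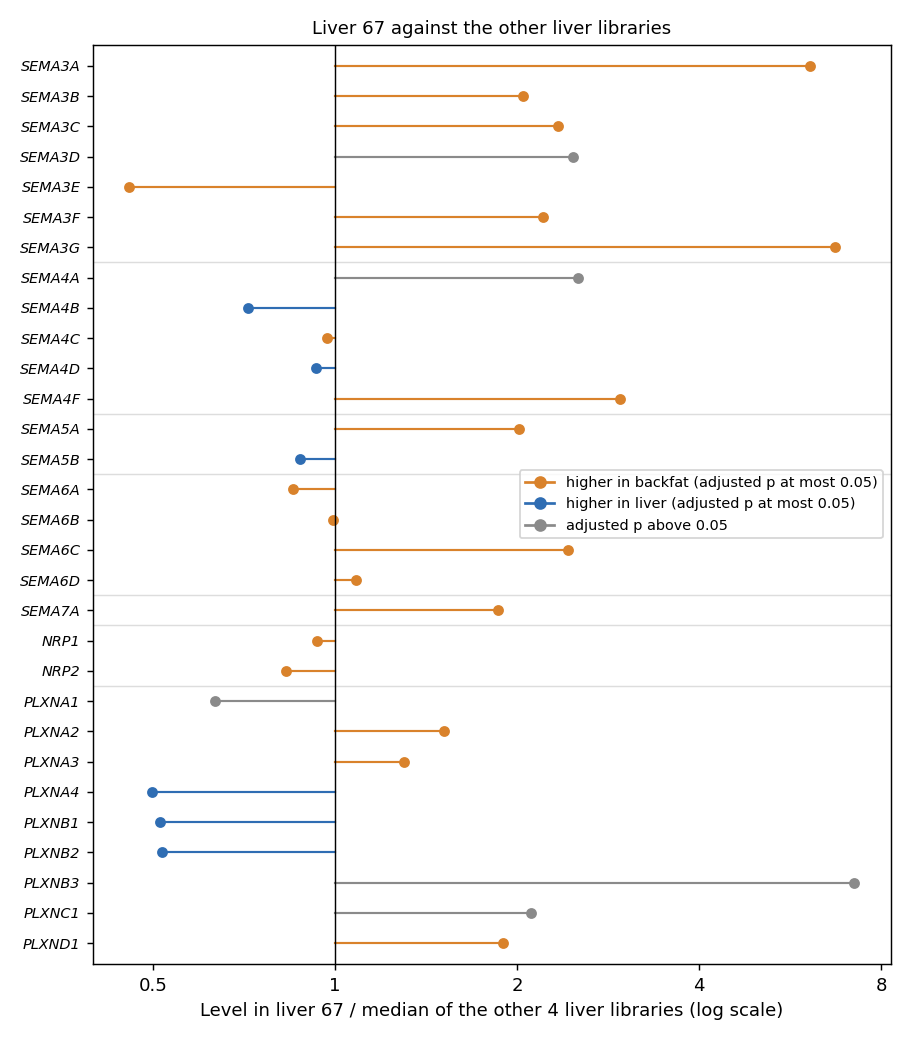
Each point is the level of 1 member in liver 67 divided by the median of the other 4 liver libraries, on a log axis, coloured by the tissue in which the member was higher. All 6 members higher in liver lie below 1, and 13 of the 19 higher in backfat lie above it.

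The spread within a tissue was otherwise moderate. The median coefficient of variation of the 30 members was 22.6% in backfat, 37.3% in liver and 21.5% in liver without liver 67. In backfat the most variable members were SEMA3E (62%), SEMA6D (54.2%) and PLXNA4 (53.2%), and the least variable was PLXNA2 (7.83%). In liver without liver 67 SEMA3F varied by 4.99% and PLXNA1 by 5.56%, while SEMA3E varied by 151%.

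The molecules that work with the family were described by lists, whose counts stand beside the 28.0% of all genes tested that were higher in backfat and the 27.0% higher in liver. The shares of all genes tested that were DEGs were 11.1% and 11.2%. Of 8 neuropilin partners tested, 4 were higher in backfat, 1 was higher in liver and 3 did not pass, with a median log2 fold change of 0.96. FLT1 and KDR, the receptors of vascular endothelial growth factor A, were DEGs higher in backfat, FLT1 with a log2 fold change of 2.51 (SE 0.21, adjusted p = 6.44e-07) and KDR with 2.05 (SE 0.26, adjusted p = 3.03e-05). The gene higher in liver, named after its values were seen, was FLT4, a receptor of lymphatic and sinusoidal endothelium (log2 fold change -1.84, SE 0.21, adjusted p = 1.01e-05). VEGFA itself, the most expressed that did not pass, was at 104 ± 15 CPM in backfat and 159 ± 60.6 CPM in liver (SD over 5 libraries each, adjusted p = 0.0699).

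Of 13 other receptors and co-receptors tested, 3 were higher in backfat, 2 were higher in liver and 8 did not pass, where all genes gave 28.0% and 27.0%. CHL1, an adhesion molecule that joins NRP1 in SEMA3A receptors, was at 33.3 ± 4.65 CPM in backfat and 1.07 ± 0.928 CPM in liver (SD, n = 5; log2 fold change 4.97, SE 0.59, adjusted p = 1.44e-05). MST1R, a receptor tyrosine kinase that associates with plexins B, had a log2 fold change of 3.86 (SE 0.35, adjusted p = 1.53e-06). TIMD4 was the DEG higher in liver (log2 fold change -3.40, SE 0.19, adjusted p = 3.33e-08). It is a receptor of resident macrophages, and whether it binds a semaphorin was not examined here. TYROBP, an adaptor of myeloid receptors, did not pass (adjusted p = 0.166).

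Of 21 effectors inside the cell that were tested, 8 were higher in backfat, 3 were higher in liver and 10 did not pass, again beside 28.0% and 27.0% of all genes. Of the 21, 2 were DEGs in each direction, beside 11.1% and 11.2% of all genes. The median log2 fold change of the list was 0.27. DPYSL3 and DPYSL2, collapsin response mediator proteins that relay SEMA3A to microtubules, were the DEGs higher in backfat. DPYSL3 had a log2 fold change of 4.40 (SE 0.41, adjusted p = 1.84e-06) and DPYSL2 of 2.82 (SE 0.23, adjusted p = 6.87e-07). ARHGAP35 was the most expressed effector that did not pass (adjusted p = 0.169).

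Furin-type convertases cut class 3 semaphorins and so set their activity. Of 4 tested, 2 were DEGs higher in liver and 2 did not pass, where 11.2% of all genes were DEGs higher in liver. FURIN was at 66.1 ± 11 CPM in backfat and 269 ± 93.4 CPM in liver (SD, n = 5; log2 fold change -2.03, SE 0.28, adjusted p = 5.4e-05), and PCSK6 had a log2 fold change of -4.18 (SE 0.29, adjusted p = 1.35e-07). PCSK7 did not pass, with -0.07 (adjusted p = 0.725).

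Other axon guidance families (slits and their ROBO receptors, netrins and theirs, RGM proteins, ephrins and Eph receptors) were counted for comparison. Of 42 genes listed, 36 were tested, of which 19 were higher in backfat, 8 were higher in liver and 9 did not pass. As DEGs 13 were higher in backfat and 3 in liver, beside 11.1% and 11.2% of all genes. The median log2 fold change of the 36 genes was 0.88. As shares of the genes tested the semaphorin family and these families both leaned to backfat, and no test of a difference between them was made.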

How the data were processed

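Total RNA of backfat and liver of 5 boars was sequenced as paired-end reads of 50 cycles. Per the paper's methods and the file headers, the authors used FastQC and Trimmomatic on the reads, mapped them to Sscrofa11.1 by HISAT2, and counted read pairs on exons with featureCounts 2.0.1 and Ensembl release 99, without strand and without reads that fell on several genes. The deposited values are raw counts per gene and the exon length of each gene. Libraries held 43820042 to 61772737 counts. The deposited WGBS calls carry no position and were not used here.

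The test was made with edgeR 4.0.16 in R 4.3.3: filterByExpr by tissue, TMM factors, and the quasi-likelihood test (glmQLFit, glmQLFTest) with tissue as the only term, adjusted by Benjamini-Hochberg over 16275 genes, of which 12740 have a symbol. DEGs passed 0.05 in the adjusted p and 2 in the size of the log2 fold change. SE was taken from the fold change and the F statistic. The tests were run on simulated counts first. TPM was computed from counts and exon lengths, and positions and windows were read from RefSeq (Sscrofa11.1) in Python 3.11.15. Symbols were matched by Ensembl identifier for 15029 of 31907 genes. Nothing in the labels says how the 5 boars were housed or grouped. With tissue as the only term, p-values measure the spread between libraries within each tissue and not that of the difference within a boar.

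Columns carry boar numbers, which the labels' replicate numbers could not be matched to. Deviations from the tissue means correlated across genes by 0.238, 0.107, 0.0490, 0.165 and 0.0984 for boars 65, 67, 69, 71 and 72. Between backfat and liver libraries of different boar numbers they correlated by -0.225 to 0.131. The boar as a block was an alternative. The others were DESeq2 1.42.0, limma-voom (limma 3.58.1), glmTreat, other scalings, other filters and libraries left out. All members were named, and of each partner list at most the 3 largest DEGs in each direction and the most expressed gene that did not pass. The named effectors higher in liver are not reported here. The members and lists were chosen with earlier results of these data known. The limits given for a count of 0 cover counting error only, while the intervals of fold changes come from the fit over libraries.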

Additional observations from a re-analysis of the deposited data

Results flagged for a closer look

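In 60 groups of 5 libraries (30 members in 2 tissues), the highest or lowest library was compared with the gap to its nearest neighbour, and 12 groups held a library far from the other 4. Chance alone gives about 1 in 20. Of the 12, 8 were in liver 67. Liver 67 was high for PLXNB3 at 3.27 CPM (others 0.382 to 0.821), PLXNC1 at 14.3 CPM (4.61 to 7.38), SEMA3A at 0.702 CPM (0.0499 to 0.190), SEMA3B at 15.7 CPM (6.73 to 8.37), SEMA3F at 19.8 CPM (8.53 to 9.44), SEMA3G at 23.2 CPM (3.12 to 4.30) and SEMA4F at 4.0 CPM (0.913 to 1.79), and low for PLXNB2 at 329.7 CPM (590.2 to 687). Liver 71 was high for SEMA3E at 0.506 CPM (0 to 0.0637), on 16 counts. In backfat the library of boar 69 was high for SEMA3G at 125 CPM (49.3 to 70.4), that of boar 65 was high for SEMA4A at 9.52 CPM (3.42 to 4.81) and that of boar 67 was low for PLXNB1 at 0.946 CPM (1.58 to 1.82).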

How the results depend on the processing

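Of the 30 members tested, 11 kept their direction, their side of the adjusted p and their DEG call under the 21 alternatives, 8 of them with a value in every one and 3 (SEMA3A, SEMA3C and SEMA5A) without a value in 1. For glmTreat, which tests another threshold, only the DEG call was compared. The 10 DEGs higher in backfat became 16 with library size alone, and 6 when no library was allowed under 10 counts, which removes SEMA3A, SEMA3C, SEMA3E and SEMA5A. The 1 DEG higher in liver became 2 with DESeq2's size factors, with the mitochondrial genes removed and with backfat 69 and liver 67 left out. Leaving out each library in turn gave 10 to 11 DEGs higher in backfat and 1 to 3 higher in liver, the latter without liver 67, where PLXNB1 and PLXNB2 passed. At the adjusted p alone those fits gave 18 to 20 and 6, the 20 without liver 67, where SEMA3D and PLXNB3 passed. With library size alone the counts were 21 and 4: SEMA5B and SEMA4D no longer passed (adjusted p = 0.0565 and 0.0737), and PLXNA1 and SEMA3D passed, with log2 fold changes of 0.93 and 1.42 (adjusted p = 0.00199 and 0.00123). PLXNB3 passed also with backfat 69 and liver 67, or boars 67 and 69, left out.

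Of 626 fold changes compared, 8 reversed, all of genes that did not pass. SEMA4A and PLXNC1 turned to 0.43 and 0.47 with library size alone, 0.12 and 0.13 with backfat 69 and liver 67 left out, and 0.019 and 0.066 with boars 67 and 69 left out. Leaving out each library in turn gave -0.68 to 0.019 for SEMA4A and -0.44 to 0.019 for PLXNC1. With the boar as a block the members had 10 and 1 DEGs, and only SEMA6B lost its adjusted p (log2 fold change 0.37, adjusted p = 0.0848). In all SEMA6B lost it in 15 alternatives, with 0.31 (adjusted p = 0.105) without backfat 67. NRP1, SEMA3E and SEMA4F did not pass glmTreat against a log2 fold change of 2 (adjusted p = 0.169, 0.26 and 0.299). Of 62 mean TPM levels, 12 moved by over 1.5 times with the longest RefSeq transcript as length and 18 without the mitochondrial genes. Low counts limit SEMA3A, SEMA3E and SEMA5A in liver. Except where stated, the causes were not tested.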
